A study of Homo sapiens with 8 samples.

Results

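Imprinted genes are described here in FT293 cells, a derivative of the human embryonic kidney line HEK293 that carries 1 genomic site for inserting a transgene. The genes were GNAS, its antisense RNA (named GNAS-AS1 and GNASAS on the array), H19, CDKN1C, PEG10, MEG3, DLK1, NNAT and PEG3. They were chosen by name, and the antisense RNA of GNAS was singled out for its low signal in HuR-expressing cells, so its difference from the HuR arrays is a description with no test. The 10 gene names are among 36337 on the array, and 21 of the 50599 probes carry them. In 4 stable isogenic lines tetracycline induced GFP alone (the control) or GFP-tagged HuR, TIA1 or TIAR. HuR, TIA1 and TIAR are RNA-binding proteins that favour U-rich RNA. RNA was taken on day 3 of tetracycline from 2 independent replicates of each line and hybridized to 8 one-colour arrays. All lines carried the tetracycline-regulated system and received tetracycline.

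Values are log2 signals relative to the 75th percentile of the array, so that 0 is a bright probe and 1 unit is a 2-fold difference. The scanner software marks a probe as well above background or not. The first GFP array stood apart, with a local background intensity of 88.7 against 37.2 to 43.2 on the other arrays, and with 86.1% of probes marked as well above background against 53.2% to 58.6%. The GFP arrays differed by more than 2-fold at 15.8% of probes, and replicate arrays of the other lines at 0.455% to 1.45%. Most fitted differences from GFP are therefore given with and without the first one. A probe of TIAL1, the gene of TIAR, had signals of 4.87 and 4.98 on the TIAR arrays and of 1.63 to 2.52 on the other 6, highest in the line labelled TIAR. A second, dimmer TIAL1 probe was not highest there, with -4.12 and -3.85 in TIAR and -3.45 and -3.70 in GFP. The ELAVL1 probe (HuR) and the TIA1 probes were not highest in their own lines, and whether they lie within the transgenes is not given, so those labels were not checked. VIM, KRT8, KRT18 and NEFL, markers of these cells, were well above background on all 8 arrays, and NEFM on 7 of them. Among markers of other tissues, ALB was well above background on both TIA1 and both TIAR arrays and on 1 array of the other lines each, with signals of -2.76 to -3.13 in the TIA lines. INS was so on both TIAR arrays, 1 MYH7 probe on both TIA1 arrays and 1 of 5 PTPRC probes on all 8, while CD3E was so on no line's replicates together, and the part of these markers in the results was not tested.

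An imprinted gene is transcribed from the allele of only one parent, because a control region rich in CG dinucleotides was methylated in the egg or the sperm, and the mark is kept through cell divisions. At the GNAS locus several first exons share the downstream exons. The common product, the Gs alpha subunit that couples receptors to adenylyl cyclase, comes from both alleles in most tissues, while other starts are used on the maternal allele only (NESP55) or the paternal allele only (XL alpha s). The antisense RNA is transcribed from the paternal allele, runs opposite to the NESP55 exon and, in the mouse, takes part in silencing it.

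The antisense RNA was read by 3 probes on the minus strand of chromosome 20, and their sequences are shown because the largest differences in this gene set rest on them. Capitals mark runs of 3 or more T, which are U in the RNA, the kind of stretch that HuR and TIA proteins favour. Positions refer to hg19, as the array's design gives them.
GNAS-AS1 probe A_33_P3214239, chr20:57394000-57394059: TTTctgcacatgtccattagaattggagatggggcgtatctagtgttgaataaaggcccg
GNAS-AS1 probe A_21_P0010500, chr20:57394102-57394161: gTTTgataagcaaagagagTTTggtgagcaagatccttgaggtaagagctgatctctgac
GNASAS probe A_19_P00801041, chr20:57402287-57402346: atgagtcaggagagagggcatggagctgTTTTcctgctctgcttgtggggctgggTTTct
A run of this kind is common in the array's probes: 68.4% of all 50599 hold one, and 13 of the 21 probes of imprinted genes do. It says nothing about binding.

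The antisense RNA of GNAS gave a clear signal in GFP-, TIA1- and TIAR-expressing cells and was near or below the limit of detection in HuR-expressing cells. For the GNAS-AS1 probe A_21_P0010500 the signals were -0.59 and -0.44 on the GFP arrays, -8.01 and -8.16 on the HuR arrays, 0.39 and 0.34 on the TIA1 arrays, and -0.25 and -0.33 on the TIAR arrays. In intensity units, these were 1078 and 988 in GFP, 6.08 and 5.84 in HuR, 1685 and 1524 in TIA1, and 1172 and 1038 in TIAR. Neither HuR array was well above background at this probe, so only bounds can be given. With the scanner's background subtraction, the signal was at least 45.4-fold higher in GFP than in HuR cells. It was at least 83.6-fold higher in TIA1 and at least 53.0-fold higher in TIAR. These bounds are taken against the dimmest probe that each HuR array still marks as well above background. With another background correction the differences were smaller than these bounds, as given below for TIA1 and GFP.

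The other GNAS-AS1 probe, A_33_P3214239, repeated this order. It gave -0.74 and -0.18 in GFP, -7.88 and -8.14 in HuR, 0.50 and 0.72 in TIA1, and -0.02 and -0.03 in TIAR. The bounds over HuR, with the same background subtraction, were 47.2-fold for GFP, 98.9-fold for TIA1 and 63.9-fold for TIAR. These probes lie next to each other and read the same RNA, so they are not separate observations of it.

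The GNASAS probe, more than 8 kb further along the plus strand, stayed measurable in every line, and gives a fold rather than a bound. Its signals were 0.57 and -0.03 in GFP, -4.54 and -5.15 in HuR, 0.15 and -0.02 in TIA1, and 0.22 and 0.13 in TIAR. The HuR arrays lay far below the other 6, which overlapped one another. The difference was 4.91 (SE 0.23) for TIA1 minus HuR and 5.02 (SE 0.23) for TIAR minus HuR, and -5.11 (SE 0.35) for HuR minus GFP, a 34.5-fold lower signal. Without the first GFP array, HuR minus GFP was -4.81 at this probe. How large the drop appears depends on the background correction, since a dim probe carries little signal of its own. With normexp in place of the scanner's subtraction, TIA1 minus HuR was 4.83 at A_21_P0010500, 5.02 at A_33_P3214239 and 3.71 at GNASAS, and HuR minus GFP was -4.07, -4.05 and -4.09.

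Among the lines other than HuR the antisense RNA differed far less, by at most 2.1-fold, and none of these differences was called. Against GFP no probe of the array was called with both GFP arrays, so the lack of a call there does not measure a difference. Calls needed a 2-fold change or more together with an adjusted p (Benjamini-Hochberg) below 0.05 in limma, which was fitted on the arrays of the compared lines. A probe entered the fit when at least 1 of those lines had it well above background in both replicates. TIA1 exceeded GFP by 0.88 (adjusted p = 0.136 from limma) and 1.07 (adjusted p = 0.165) at the GNAS-AS1 probes, and TIA1 minus GFP was -0.20 (adjusted p = 0.701) at the GNASAS probe. Without the first GFP array these differences were 0.80 (adjusted p = 0.054 from limma), 0.78 (adjusted p = 0.0719) and 0.10 (adjusted p = 0.724). With all 8 arrays in one fit the probe A_33_P3214239 was called higher in TIA1 than in GFP (adjusted p = 0.0261 from limma). TIAR minus TIA1 was -0.66 (adjusted p = 0.0584) and -0.63 (adjusted p = 0.0787) at the GNAS-AS1 probes and 0.11 (adjusted p = 0.634) at GNASAS, with the groups apart at the first 2 probes and overlapping at the third.

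**Figure D1:**
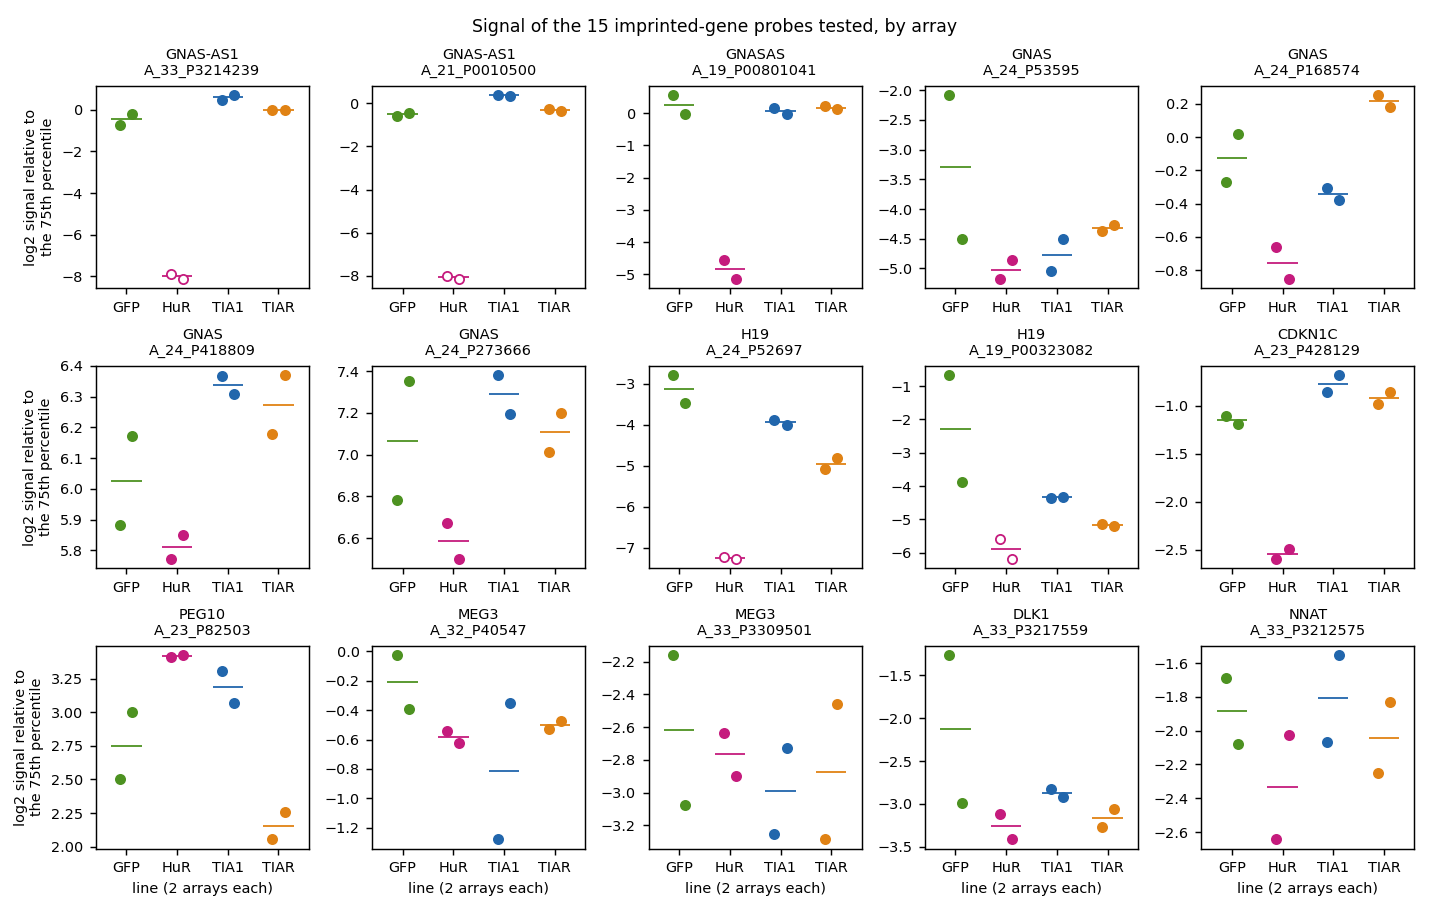
Signal of each of the 15 imprinted-gene probes that at least 1 line had well above background in both replicates, in log2 units relative to the 75th percentile of the array. Each point is an array (2 per line), each bar the line's mean, and open points belong to a line that did not have the probe well above background in both replicates. The HuR arrays lie between -4.54 and -8.16 at the 3 antisense probes and at or below -2.49 at H19 and CDKN1C, while the arrays of MEG3 and NNAT overlap between most lines.

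Sense transcripts of GNAS were measured by 5 probes on the plus strand, which the array describes as different transcript variants. The common 3′ part of the gene was bright in every line and slightly lower in HuR. Probe A_24_P273666 (chr20:57486004-57486063) gave 6.78 and 7.35 in GFP, 6.67 and 6.50 in HuR, 7.38 and 7.20 in TIA1, and 7.01 and 7.20 in TIAR. Both HuR arrays lay below all other arrays, by a difference of 0.70 (SE 0.12, adjusted p = 0.0164 from limma) against TIA1 and 0.52 (SE 0.13, adjusted p = 0.0452) against TIAR, each under 2-fold. The probe A_24_P418809, which spans an exon junction between 57485083 and 57485394, showed 0.53 (adjusted p = 0.0171) and 0.46 (adjusted p = 0.048).

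Probe A_24_P168574 (chr20:57475008-57475067) read -0.27 and 0.02 in GFP, -0.66 and -0.85 in HuR, -0.31 and -0.38 in TIA1, and 0.25 and 0.18 in TIAR. TIA1 exceeded HuR by 0.42 (adjusted p = 0.0462 from limma) and TIAR exceeded HuR by 0.98 (SE 0.11, adjusted p = 0.0103), just under the 2-fold limit. That last probe was called with normexp background correction (1.0) and without TIAR replicate 2 (1.01). At the probe of transcript variant 4, A_24_P53595 (chr20:57415463-57415522), the signals were low at -2.08 and -4.51 in GFP, -5.18 and -4.87 in HuR, -5.04 and -4.50 in TIA1, and -4.36 and -4.28 in TIAR. At this probe TIA1 minus HuR was 0.25 (adjusted p = 0.419) and TIAR minus HuR was 0.70 (adjusted p = 0.0308), and any link to the antisense RNA was not tested. The probe of variant 2, A_24_P168581 (chr20:57430307-57430366), was well above background on the first GFP array only. HuR minus GFP was -0.63, -0.22, -0.48 and -1.73 at the other 4 sense probes in the order A_24_P168574, A_24_P418809, A_24_P273666 and A_24_P53595, with adjusted p from limma of 0.263 to 0.553. Without the first GFP array these were -0.78, -0.36, -0.77 and -0.51, with adjusted p of 0.0368 to 0.122 and none of them 2-fold, so that the value at A_24_P53595 rested on that array.

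Genes on either side of GNAS within 250000 bases were read by 18 probes, and the antisense probes stood apart from them. Of 12 such probes tested between TIA1 and HuR, 4 were called higher in TIA1, and of 11 tested between TIAR and HuR, 1 was called higher and 1 lower in TIAR. Over all probes tested, 8.5% were called higher and 4.9% lower in TIA1, and 7.06% higher and 3.01% lower in TIAR. On chromosome 20, with the chosen genes left out, 147 of 761 tested probes were called higher and 11 lower in TIA1. In TIAR, 146 of 774 were called higher and 5 lower there. The neighbours called higher in TIA1 were the 3 probes of NPEPL1, an aminopeptidase-like gene, with 1.15 (adjusted p = 0.00708 from limma), 1.48 (adjusted p = 0.0442) and 1.32 (adjusted p = 0.00502), and 1 probe of CTSZ, the gene of the lysosomal protease cathepsin Z, with 1.07 (adjusted p = 0.00431). The NPEPL1 probe with 1.48 was dim and entered this fit through TIA1 only. The other CTSZ probe rose in TIAR by 2.35 (SE 0.15, adjusted p = 0.00487) over HuR. ATP5E, a subunit of the mitochondrial ATP synthase, fell at 1 probe in TIAR, by 1.23 (adjusted p = 0.00724) against HuR, while TIAR minus HuR was 0.42 (adjusted p = 0.0377) at its other probe. Around all members together, 153 probes lay within that distance and 57 were tested against HuR, of which 11 were called higher in TIA1, and 3 higher and 1 lower in TIAR, beside the same shares over all probes. These include SNORA54 (1.08) near CDKN1C and LOC147670 (1.02) near PEG3, both higher in TIA1.

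**Figure D2:**
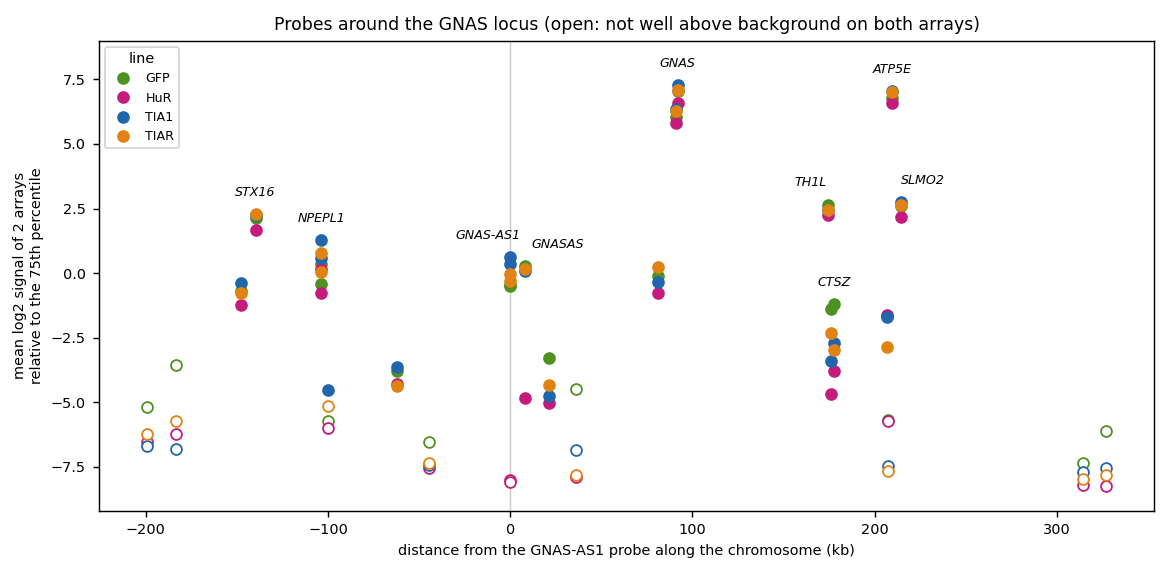
Mean log2 signal of the 2 arrays of each line, relative to the 75th percentile, at probes around the GNAS locus, against the distance along the chromosome in kb from the GNAS-AS1 probe A_21_P0010500. Open points are lines that did not have the probe well above background in both replicates. At 0 kb the HuR points fall to about -8.0 and -8.1 while the other lines lie between -0.5 and 0.6, and no other probe shown has a gap of that size.

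GNAS, NNAT and L3MBTL1 lie on chromosome 20, and probes across it as a whole were lower in HuR-expressing cells. This was looked at after the values had been seen, and it is a description without a test. Only the chosen genes were left out, and L3MBTL1 was not. The median difference over 761 chromosome 20 probes was 0.49 for TIA1 minus HuR, with 84.5% of probes above 0. Over the probes of the other chromosomes it was 0.07. Over the other chromosomes taken one at a time, the medians ran from -0.11 on chromosome 14 to 0.31 on chromosome 21. For TIAR minus HuR the chromosome 20 median was 0.48 over 774 probes, with 81.8% above 0, and the other chromosomes ran from -0.18 to 0.19. For HuR minus GFP it was -0.52, with 12.4% of probes above 0, and the others ran from -0.36 to 0.16. Taken relative to the other chromosomes, HuR minus GFP was -0.49 on chromosome 20 with both GFP arrays and -0.50 without the first. Over the whole chromosome TIA1 and TIAR did not show it against GFP, with medians of 0.00 and -0.05.

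The shift covered the length of the chromosome. All 13 windows of 5000000 bases had a median above 0 in both comparisons of a TIA line with HuR, from 0.13 to 0.84 for TIA1 (from 0.35 over windows of 20 or more probes) and from 0.20 to 0.85 for TIAR, and all 13 were below 0 in HuR minus GFP. In the window that holds GNAS (from base 55000001), the medians were 0.44 for TIA1 minus HuR and 0.20 for TIAR minus HuR. Against GFP they were -0.66 for HuR, -0.20 for TIA1 and -0.37 for TIAR there. Relative to each probe's mean over the 8 arrays, the chromosome 20 median was -0.36 on both HuR arrays and lay between 0.03 and 0.15 on the other 6. Beside the chromosome-wide median of 0.49 for TIA1 minus HuR stand the differences of 0.42 to 0.70 at 3 GNAS sense probes. The fourth (A_24_P53595) had 0.25 and the GNASAS probe 4.91. For TIAR minus HuR the chromosome-wide median was 0.48, the same sense probes had 0.46 to 0.98, and the GNASAS probe had 5.02. DNA copy number was not measured, and the part of the chromosome-wide shift in the GNAS, NNAT and L3MBTL1 values was not tested.

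**Figure D3:**
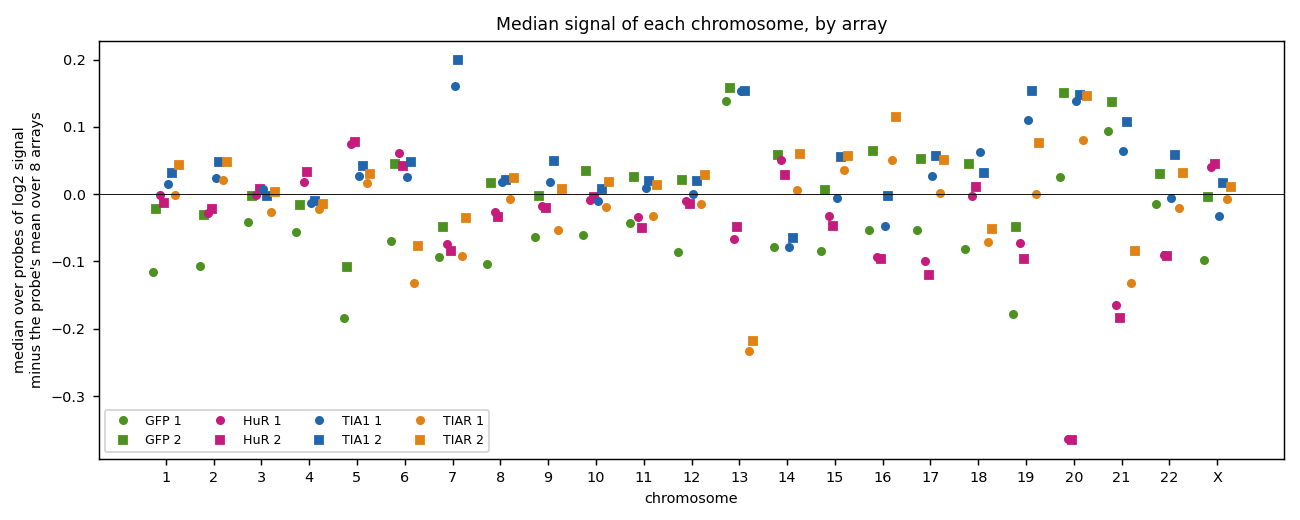
Median over the probes of each autosome and of chromosome X of the log2 signal minus the probe's mean over the 8 arrays, from 673 probes for chromosome 20, with 1 point for each array (circle, replicate 1; square, replicate 2). The HuR arrays both lie at -0.36 on chromosome 20, below the other arrays there, and the TIAR arrays are lowest on chromosome 13.

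L3MBTL1, a polycomb-related repressor expressed from the paternal allele, lies on the same chromosome and was the imprinted gene outside the chosen 10 with the largest fitted difference from HuR. Its probe A_19_P00316107 gave -1.56 and -0.95 in GFP, -3.0 and -2.94 in HuR, 0.10 and 0.07 in TIA1, and -0.32 and -0.24 in TIAR. The HuR arrays were lowest and the TIA1 and TIAR arrays above the GFP arrays. TIA1 exceeded HuR by 3.06 (SE 0.09, adjusted p = 0.00177 from limma) and TIAR by 2.69 (adjusted p = 0.00359). All 4 probes of the gene were called in both comparisons, with differences of 2.67 to 3.18 for TIA1 and 2.69 to 3.21 for TIAR. Of these probes, 1 had its spot on the second GFP array left out as an outlier. Without HuR replicate 1, no call against HuR was left in the TIAR comparison, at these probes or at any of the 30008 tested over the array.

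H19 is an untranslated RNA made from the maternal allele on chromosome 11, beside the growth factor gene IGF2, which is made from the paternal allele under a shared control region. Its probes are shown because they differ in detection and in how firmly their change can be called. Both lie on the minus strand, and capitals mark T runs as above.
H19 probe A_24_P52697, chr11:2016674-2016733: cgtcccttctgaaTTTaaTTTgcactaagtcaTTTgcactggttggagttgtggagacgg
H19 probe A_19_P00323082, chr11:2016961-2017020: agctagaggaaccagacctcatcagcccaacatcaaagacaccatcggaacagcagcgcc
The first holds 3 such runs and the second none.

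H19 was lowest in HuR-expressing cells at both probes, and lower in TIAR than in TIA1. For A_24_P52697 the signals were -2.78 and -3.47 in GFP, -7.23 and -7.28 in HuR, -3.88 and -4.0 in TIA1, and -5.08 and -4.82 in TIAR, so that no line overlapped another. The HuR arrays were not well above background. The signal was at least 4.22-fold higher in TIA1 than in HuR cells (adjusted p = 0.00177 from limma) and at least 2.1-fold higher in TIAR (adjusted p = 0.004), and both were called. These calls depend on the background of a dim probe. With normexp the TIAR difference was 0.70 and lost its call, and with normexp and quantile normalization together the TIA1 difference was 0.99 and lost it too. The TIAR call was also lost without HuR replicate 1 (adjusted p = 0.053).

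Against GFP the same H19 probe was at least 7.42-fold lower in HuR. The fitted difference, with HuR values at background, was -4.13 (adjusted p = 0.134 from limma with both GFP arrays). Without the first GFP array the fitted difference was -3.78 (adjusted p = 0.00825) and was called, the remaining GFP array being taken to vary like the others. TIAR minus GFP was -1.82 (adjusted p = 0.195), and -1.48 (adjusted p = 0.045) without that array. TIAR minus TIA1 was -1.01 (SE 0.14, adjusted p = 0.0453), a call that was lost with either array of either line left out.

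The second H19 probe, A_19_P00323082, gave -0.67 and -3.89 in GFP, -5.59 and -6.19 in HuR, -4.34 and -4.32 in TIA1, and -5.15 and -5.19 in TIAR, and only 1 HuR array was well above background. Its high value on the first GFP array stood alone. TIA1 exceeded HuR by 1.56 (SE 0.22, adjusted p = 0.0102 from limma), which was called but fell to 0.89 with normexp and lost the call. The probe entered this fit through TIA1 only. TIAR minus HuR was 0.72 (adjusted p = 0.0788), and TIAR minus TIA1 was -0.84 (adjusted p = 0.0402), under 2-fold. HuR minus GFP was -3.61 (adjusted p = 0.285), and -2.0 (adjusted p = 0.0313) without the first GFP array.

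IGF2, the paternally expressed neighbour of H19, was also lowest in HuR. Its probe A_23_P150609 (chr11:2150394-2150453) gave -0.63 and -0.53 in GFP, -1.33 and -1.31 in HuR, 0.11 and 0.65 in TIA1, and 0.30 and 0.58 in TIAR. The difference from HuR was 1.70 (SE 0.20, adjusted p = 0.00691 from limma) for TIA1 and 1.76 (SE 0.13, adjusted p = 0.00537) for TIAR, both called with HuR's arrays below all others, and both lost with either HuR array left out. A dimmer IGF2 probe, A_23_P421379, was at least 2.14-fold higher in TIA1 than in HuR, where it was at background. It entered this fit through TIA1 only. Its fitted difference was 2.12 (adjusted p = 0.039 from limma), and with normexp the difference was 0.80 and not called.

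CDKN1C encodes p57, an inhibitor of cyclin-dependent kinases made from the maternal allele of a separate imprinted domain on chromosome 11. It was well above background everywhere and lowest in HuR. Its probe (chr11:2904903-2904962, minus strand) read -1.11 and -1.19 in GFP, -2.60 and -2.49 in HuR, -0.86 and -0.68 in TIA1, and -0.98 and -0.85 in TIAR. The HuR arrays lay below the other 6 by more than 1 unit, and the TIA1 and TIAR arrays overlapped.

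TIA1 exceeded HuR by 1.77 (SE 0.11, adjusted p = 0.00261 from limma) and TIAR by 1.63 (SE 0.11, adjusted p = 0.00482). The TIAR call was lost without HuR replicate 1 (adjusted p = 0.0625) or HuR replicate 2 (adjusted p = 0.0532), although the difference stayed at 1.58 and 1.68. HuR minus GFP was -1.40 (SE 0.16, adjusted p = 0.166), and -1.35 (adjusted p = 0.0177) without the first GFP array. Over chromosome 11 the median difference was 0.07 for TIA1 minus HuR and 0.05 for TIAR minus HuR, close to that of the other chromosomes.

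PEG10, a paternally expressed gene derived from a retrotransposon, had its lowest signals in TIAR. Its probe (chr7:94298564-94298623, plus strand) gave 2.50 and 3.0 in GFP, 3.41 and 3.42 in HuR, 3.30 and 3.07 in TIA1, and 2.05 and 2.26 in TIAR. TIAR minus HuR was -1.26 (SE 0.11, adjusted p = 0.00682 from limma) and TIAR minus TIA1 was -1.03 (SE 0.15, adjusted p = 0.047), both called. The first lost its call without HuR replicate 1 (adjusted p = 0.0769) or HuR replicate 2 (adjusted p = 0.074), and the second with any of its arrays left out. Chromosome 7 as a whole had a median of -0.25 for TIAR minus TIA1 and 0.04 for TIAR minus HuR, and its part in the PEG10 value was not tested. TIA1 minus HuR was -0.23 (adjusted p = 0.19), while the neighbouring gene CASD1 rose in TIA1 by 1.5 (adjusted p = 0.00296) and 1.09 (adjusted p = 0.0102) at its 2 probes.

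MEG3 and DLK1, on chromosome 14, were called in no comparison with both GFP arrays in the fit. MEG3, a maternally expressed untranslated RNA, had a probe (A_32_P40547) with -0.03 and -0.39 in GFP, -0.54 and -0.62 in HuR, -1.28 and -0.35 in TIA1, and -0.53 and -0.48 in TIAR. Its second measured probe ranged from -3.29 to -2.16, and the arrays of each line spread across those of the others. DLK1, a paternally expressed membrane protein of the Notch family, gave -1.26 and -2.99 in GFP, -3.11 and -3.41 in HuR, -2.83 and -2.92 in TIA1, and -3.26 and -3.06 in TIAR.

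NNAT (neuronatin, chr20:36151971-36152030, paternally expressed) gave -1.69 and -2.08 in GFP, -2.64 and -2.02 in HuR, -2.06 and -1.55 in TIA1, and -2.25 and -1.83 in TIAR, with overlap between every pair of lines. TIA1 minus HuR was 0.52 (SE 0.29, adjusted p = 0.209 from limma). Its neighbour SRC, a tyrosine kinase gene, was called higher in TIA1 by 1.17 (adjusted p = 0.00368) and in TIAR by 1.36 (adjusted p = 0.0063). PEG3, a paternally expressed zinc finger gene, was not measured: both of its probes were well above background on the first GFP array only, as were 1 probe each of DLK1, MEG3 and GNAS. A further MEG3 probe was well above background on that array and on 1 HuR array. In all, 15 of the 21 probes were well above background in both replicates of at least 1 line, and 11 in all 8 arrays.

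Counted over the probes outside the antisense RNA, 3 of 12 tested were called between TIA1 and HuR (the H19 pair and CDKN1C, all higher in TIA1), beside 13.4% of all probes tested, 8.5% higher and 4.9% lower. Between TIAR and HuR, 3 of 12 were called, with H19 and CDKN1C higher and PEG10 lower in TIAR, beside 10.1% of all probes, 7.06% higher and 3.01% lower. Between TIAR and TIA1, with the antisense probes counted, 2 of 15 were called (H19 and PEG10, lower in TIAR), beside 2.35% of all probes, 1.24% higher and 1.1% lower. With so few members these counts are a description. The median log2 difference of the tested members was 0.47 for TIA1 minus HuR and 0.49 for TIAR minus HuR, against 0.08 and 0.05 over all probes. Of the 12 probes, 4 read GNAS itself and 1 NNAT, all on chromosome 20. The medians over the other probes of that chromosome were 0.49 and 0.48. A filter on detection precedes all of these numbers, and the called H19 probes entered the fits against HuR through the TIA lines only.

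No member was called against GFP with both GFP arrays in the fit, and neither was any other probe, so percent called was 0% in all 3 comparisons with limma. At an unadjusted p under 0.05, limma had 4 of 12 members for HuR against GFP (17.2% of all probes), 2 of 15 for TIA1 (21.7%) and 1 of 15 for TIAR (16.4%), and the methods' paired t-test called 0 after adjustment in each. Without the first GFP array, 3 members were called between HuR and GFP (CDKN1C and both H19 probes), 0 between TIA1 and GFP and 2 between TIAR and GFP (both H19 probes). Over the whole array, 2465 of 28902, 3215 of 28097 and 1827 of 28643 probes tested were called in these fits. Without the second one, leaving the array that stood apart as the only GFP array, the counts were 10 of 18 members, 9 of 21 and 7 of 21, and over the whole array 20685 of 43810, 19662 of 43704 and 18207 of 43796 probes.

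**Figure D4:**
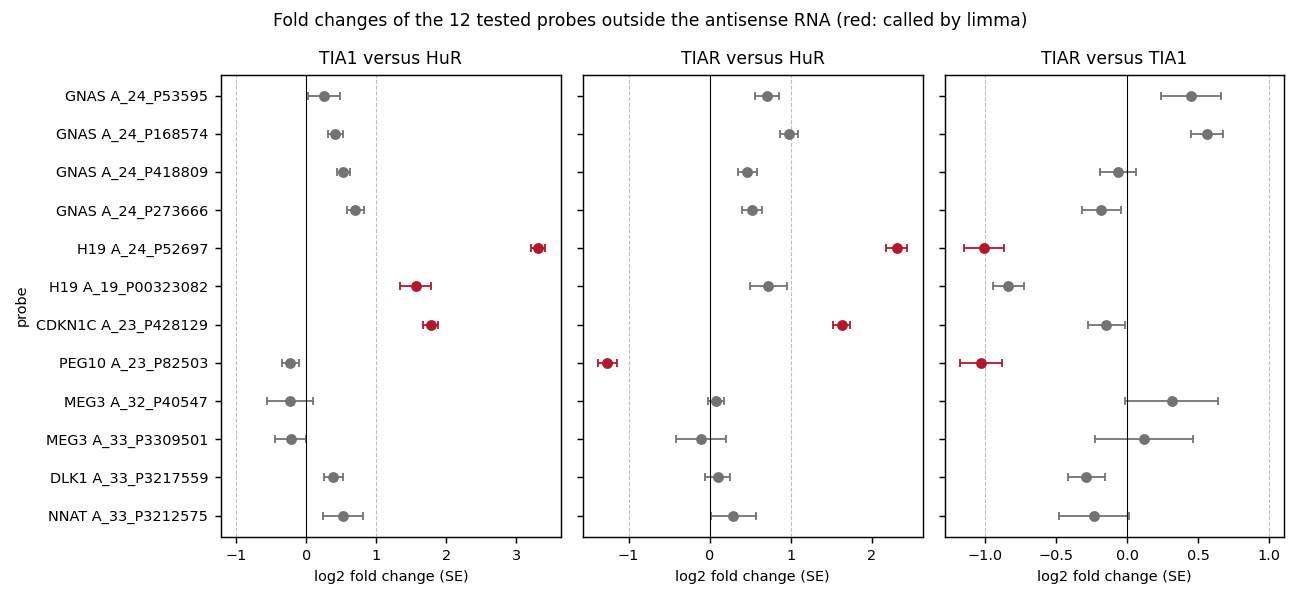
Fitted log2 fold change of the 12 tested probes outside the antisense RNA in 3 comparisons, with bars of 1 SE from limma and dashed lines at the 2-fold limits. Red points were called at an adjusted p under 0.05, and they are H19 and CDKN1C against HuR, and H19 and PEG10 for TIAR against TIA1, with PEG10 also lower in TIAR than in HuR at -1.26. The fitted values of the H19 probe A_24_P52697 against HuR are not bounds, since HuR was not well above background there.

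Promoter sequence was available for 3 of the 10 gene names (GNAS, H19 and MEG3) as 10 RefSeq windows of 300 bases on GRCh38.p14, from 250 before to 50 after a transcript start. CG dinucleotides, the sites of imprint methylation, were counted in them on the printed strand, and the GNAS window of most CG and the H19 window are shown because they lie at opposite ends of the members' range. CG is in capitals.
GNAS promoter window of most CG, chr20:58888930-58889229, plus strand: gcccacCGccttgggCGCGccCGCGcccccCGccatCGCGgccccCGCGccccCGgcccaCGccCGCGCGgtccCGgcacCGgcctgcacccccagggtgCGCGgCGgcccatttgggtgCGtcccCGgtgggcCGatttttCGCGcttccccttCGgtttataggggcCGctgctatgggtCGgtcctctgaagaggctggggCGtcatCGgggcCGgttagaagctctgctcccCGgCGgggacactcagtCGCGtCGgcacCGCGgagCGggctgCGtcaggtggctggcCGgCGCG
H19 promoter window, chr11:2001217-2001516, minus strand: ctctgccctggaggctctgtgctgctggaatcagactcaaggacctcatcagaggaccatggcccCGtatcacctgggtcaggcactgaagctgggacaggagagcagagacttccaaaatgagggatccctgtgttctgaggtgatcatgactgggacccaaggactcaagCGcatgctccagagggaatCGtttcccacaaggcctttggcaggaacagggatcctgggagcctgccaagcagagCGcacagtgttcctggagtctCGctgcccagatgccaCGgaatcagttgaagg
The GNAS window holds 43 CG, and 4.98% of all 35116 windows hold at least as many. The H19 window holds 6, and 66.3% hold at least as many. The 6 windows of GNAS ranged from 10 to 43, the 3 of MEG3 from 17 to 19, and the median over all windows was 14. Methylation was not measured in these cells.

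A wider list of 44 imprinted genes, of which 41 are on the array, was read in the same fits. Between TIA1 and HuR, 26 were tested, 6 were called higher in TIA1 (10.2% of all gene names were) and 1 lower (5.79%), with a median of 0.13 beside 0.08 over all probes. Between TIAR and HuR, 4 of 26 were higher (8.62% of all) and 1 lower (3.66%), with a median of -0.01 beside 0.05. L3MBTL1, IGF2, MEST and DIO3 were called higher in both comparisons, which share the HuR arrays. MEST, a paternally expressed hydrolase-like gene, gave -1.29 and -3.29 in GFP, -6.68 and -6.28 in HuR, -3.91 and -3.49 in TIA1, and -4.35 and -4.47 in TIAR. HuR was not well above background at MEST, which was at least 4.99-fold higher in TIA1 and at least 3.05-fold higher in TIAR. MEST entered these fits through the TIA lines only. The fitted differences, with HuR values at background, were 2.78 (adjusted p = 0.00332 from limma) and 2.07 (adjusted p = 0.00595). With normexp the TIAR difference was 0.84 and not called.

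DIO3, the enzyme that inactivates thyroid hormone, belongs to the same imprinted cluster as MEG3 and DLK1. It gave -0.51 and -2.67 in GFP, -3.80 and -3.78 in HuR, -2.58 and -2.56 in TIA1, and -2.67 and -2.75 in TIAR. The differences from HuR were 1.22 (adjusted p = 0.00304) and 1.08 (adjusted p = 0.00654), and both calls were lost with normexp, where they were 0.98 and 0.89. TFPI2, an inhibitor of serine proteases on chromosome 7, fell in TIA1: it gave 1.06 and 0.93 in GFP, 1.23 and 1.06 in HuR, -0.24 and 0.03 in TIA1, and 1.04 and 0.97 in TIAR. TIA1 minus HuR was -1.25 (adjusted p = 0.00628 from limma) and TIAR minus TIA1 was 1.11 (adjusted p = 0.0405), the only one of 25 genes of the list called in that comparison (1.56% of all gene names were called higher and 1.37% lower). DIRAS3, a Ras-like gene, was lower in TIAR than in HuR (-1.09, adjusted p = 0.0479). Its probe was well above background on only 1 TIAR array and entered this fit through HuR only. The other 2 genes higher in TIA1, UBE3A (1.02) and ZNF331 (1.04), were each called at 1 probe while their brightest probes differed by -0.16 and -0.28, and they are named after their values were seen.

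**Figure D5:**
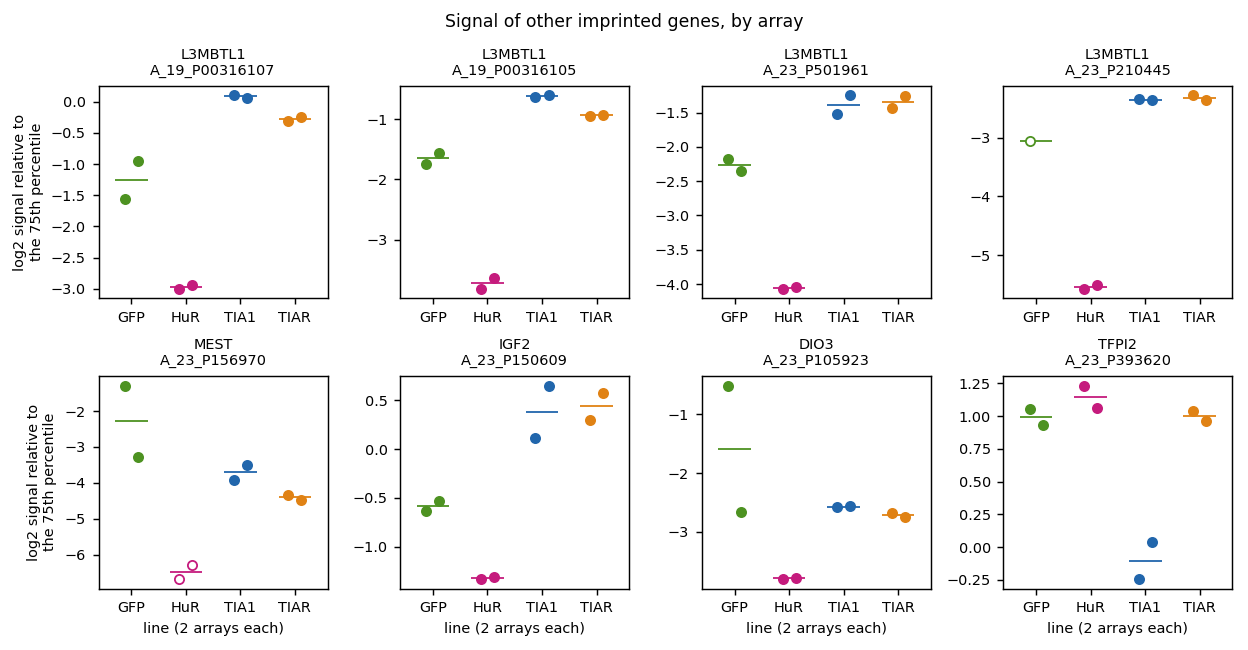
Signal of 5 other imprinted genes, in log2 units relative to the 75th percentile, with 1 point for each array and a bar for the mean of each line. Open points belong to a line that did not have the probe well above background in both replicates, and 1 L3MBTL1 probe has no value on the second GFP array. The HuR arrays are lowest for L3MBTL1, MEST, IGF2 and DIO3, and the TIA1 arrays, at -0.24 and 0.03, are lowest for TFPI2.

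Genes that set or keep imprints (22 genes, 14 tested) were counted in the same way. Between TIA1 and HuR, 2 were higher and 1 was lower, beside 10.2% and 5.79% of all gene names. Between TIAR and HuR 1 was higher and 1 lower, beside 8.62% and 3.66%. The medians were 0.06 and -0.03, against 0.08 and 0.05 over all probes. KDM1B, a demethylase of histone H3 needed for imprints in the egg, was lower in TIA1 by -1.05 (adjusted p = 0.0107 from limma). The others, named after their values were seen because their called probe was not the brightest, were DNMT3A, a DNA methyltransferase, higher in TIA1 (1.36, adjusted p = 0.0094) and in TIAR (1.09) at 1 probe, UHRF1, which guides methylation to copied DNA, higher in TIA1 (1.03), and SMCHD1, at a dim probe where no TIAR array was well above background.

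Genes of Gs signaling, the pathway of the GNAS protein (36 genes, 32 tested against HuR), showed 2 higher and 2 lower in TIA1, and 0 higher and 1 lower in TIAR. The shares of all gene names were again 10.2% and 5.79% for TIA1 and 8.62% and 3.66% for TIAR. PDE4A, a phosphodiesterase that breaks down cyclic AMP, rose in TIA1 by 1.28 (adjusted p = 0.00356 from limma) over HuR and was lower in TIAR than in TIA1 by -1.16 (adjusted p = 0.0292). RIC8B, a chaperone of the Gs alpha subunit, rose by 1.20 (adjusted p = 0.00359) at 1 of its 2 probes, with -0.31 (adjusted p = 0.461) at the other. ADCY7, an adenylyl cyclase, was lower in TIA1 by -1.42 (adjusted p = 0.0238), and PDE3B, another phosphodiesterase, by -1.11 (adjusted p = 0.00393). The ADCY7 probe was well above background on only 1 TIA1 array and entered this fit through HuR only. PRKACB, a catalytic subunit of protein kinase A, was lower in TIAR than in HuR by -1.0 (adjusted p = 0.00744) at its brightest probe, while a dimmer probe gave 0.96 (adjusted p = 0.0123) and went the other way. The medians were 0.02 and -0.06, below the 0.08 and 0.05 of all probes.

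The probes whose pattern over the 8 arrays was most like that of the GNAS-AS1 probe A_21_P0010500, among 29580 and with the imprinted members left out, belonged to MFAP2 (Pearson r 0.997), STK35 (0.995), CBFA2T2 (0.994), C2CD2 (0.994) and KANK3 (0.994). The correlation is a description over 8 arrays of which the 2 HuR arrays set most of the pattern. MFAP2, the gene of a microfibril protein, had 0.56 and 0.97 in GFP, -8.27 and -8.06 in HuR, and 0.89 to 1.05 in the TIA lines, so it too was near background in HuR only. STK35 and CBFA2T2 lie on chromosome 20 and differed far less, with HuR means of -3.77 and -1.49 against -2.72 and -0.95 in GFP. Under quantile normalization the 5 probes ranked 4, 4902, 968, 67 and 16. Among the members, the likeness was 0.999 for the other GNAS-AS1 probe, 0.988 for CDKN1C, 0.987 for GNASAS, 0.890 for H19 at A_24_P52697, 0.37 to 0.83 for the GNAS sense probes and -0.57 for PEG10.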

How the data were processed

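RNA of 4 FT293 lines was measured on 8 one-colour Agilent arrays (2 independent replicates a line, 1 slide). The authors deposited the scanner's processed signal, an intensity from which the software had removed background and spatial trends. Their deposited series table holds log2 values, in which the TIAR arrays were quantile-normalized apart from the others, and it served as an alternative only. The processing notes name limma without a version.

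Here the signals were put on the log2 scale relative to the 75th percentile of the array, without spots marked as outliers, and averaged over the spots of each probe. Probes that at least 1 compared line had well above background in both replicates were tested with limma 3.58.1 in R 4.3.3 on the 4 arrays of the comparison, with Benjamini-Hochberg adjustment over all of them, and called at 2-fold and an adjusted p under 0.05. A bound uses, on each array, the dim probe's signal or that of the dimmest probe well above background, whichever was higher. Bounds hold for the scanner's background subtraction, and some were not reached with normexp. The number of arrays limits the precision.

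Named are all probes of the members, the called genes of each list with the largest change by their brightest probe (up to 4 a comparison, DIO3 as the fifth named after its values were seen), called neighbours within 250000 bases, the 5 genes most like GNAS-AS1, and the genes of the expressed proteins. Members and lists were chosen with earlier results of these data known. The values by chromosome and the alternatives for them and for the genes of the lists and the neighbours were chosen after seeing the data. Alternatives were normexp (offset 50), quantile normalization, both, the series table, other filters, all 8 arrays in one fit, a replicate block, each array left out and the methods' paired t-test. Promoter windows are from RefSeq. Columns of the authors' own comparisons were not used.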

Additional observations from a re-analysis of the deposited data

Results flagged for a closer look

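A test of the difference between TIAR and TIA1, which share the contrast with HuR, singled out 5 probes on the log2 scale as differing between these lines. TIAR minus TIA1 was -1.03 for PEG10, -1.01 for H19 at probe A_24_P52697, 1.11 for TFPI2, -1.16 for PDE4A and -1.16 for ATP5E at 1 of its probes, with limma's adjusted p under 0.05 in each. Both TIAR arrays lay on the same side of both TIA1 arrays at all 5. All 5 calls were lost with the replicate block, with no filter and without TIAR replicate 1, where 0 probes of the whole array were called against 659. With only 2 arrays a line, no array could be tested as an outlier.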

How the results depend on the processing

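No value reversed under the alternatives that were run. Of the counts of called members, 52 stayed within 1.5 times and 26 did not. Of the members' values, 1056 kept their direction and side of the threshold, 25 gained a call, 42 lost one, and 35 antisense values without a test moved beyond the replicate spread. Of the other named probes' values, 352 kept their call and 238 lost it. Between TIA1 and HuR, the 3 calls became 1 with normexp and quantile normalization, 1 with the authors' series table, 1 with probes well above background on all 4 arrays, and 0 with the methods' paired t-test, and they stayed at 3 with any array left out. Between TIAR and HuR, the 3 calls became 0 with the paired t-test and 0 to 4 with an array left out. They were 0 without HuR replicate 1, 1 without HuR replicate 2 and 4 without TIAR replicate 2. Against GFP, where no call was made, all 8 arrays in one fit gave 2 for HuR, 1 for TIA1 and 1 for TIAR (1144, 2539 and 1702 over all probes), and leaving out an array gave 0 to 10, 0 to 9 and 0 to 7, with up to 20685 of 43810 probes called over the whole array. The 2 calls between TIAR and TIA1 became 0 with normexp, with normexp and quantile normalization, with the series table, with no filter, with all 8 arrays, with the replicate block, with the paired t-test and with any array left out. The cause of these changes was not tested. Over all probes, the calls fell from 3852 to 2203 with normexp for TIA1 against HuR and from 2930 to 1600 for TIAR against HuR.

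The lines share replicate numbers, but nothing says that a number marks a shared batch, and deviations of same-numbered arrays correlated at -0.066 to 0.135 between lines. With the replicate number as a block, 3 member probes were called between TIA1 and HuR, 3 between TIAR and HuR and 0 in the other 4 comparisons.

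The size of the antisense difference from HuR moved with the processing. For TIA1 at probe A_21_P0010500 it was 8.45, 4.83 with normexp, 7.79 with quantile normalization and 4.47 with the series table, and at GNASAS it was 4.91, 3.71 with normexp, 4.47 with quantile normalization and 3.33 with both. The chromosome 20 median relative to the other chromosomes ranged from 0.24 to 0.44 for TIA1 minus HuR, 0.21 to 0.46 for TIAR minus HuR and -0.54 to -0.36 for HuR minus GFP. Both GNAS-AS1 probes and 1 H19 probe were at background in HuR, so their lowest level there is unknown.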
